A study of Mus musculus with 10 samples.

Results

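The troponins and tropomyosins are the regulatory proteins of the muscle thin filament. They were represented by 9 genes, found by their symbols among the 23337 genes of the deposited table: Tnnc1, Tnni3, Tnni1, Tnnt2, Tnnt1, Tpm1, Tpm2, Tpm3 and Tpm4. All 9 were present and all 9 entered the tests. RNA had been sequenced from the left atrium of 6 mice labelled Tbx5 knockout (genotype Tbx5-/-, 3 female and 3 male) and 4 mice labelled control (Tbx5 +/+, 2 female and 2 male). The T-box protein Tbx5 regulates transcription in heart muscle. In the knockout, Cre recombinase under the ubiquitous R26 promoter, active after tamoxifen, cut out exon 3 of Tbx5, so the excision was not limited to cardiomyocytes. The dose was 0.167 mg of tamoxifen daily, injected intraperitoneally on 3 days, and atria were collected after 1 further week. All animals were of mixed C57B6 and 129 background, aged 8 to 10 weeks in the sample labels and 6 to 8 weeks in the extraction protocol. The labels do not say whether controls carried Cre or received tamoxifen, and they name both an mRNA kit and a ribosomal depletion kit.

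Each library is labelled as a separate animal. Total counts were 5789632 to 7355782 in knockout libraries and 5701670 to 7697556 in control libraries. The Tbx5 count was higher in the libraries labelled knockout, at 1952 ± 336 normalized counts (SD, n = 6), than in those labelled control, at 939 ± 125 (SD, n = 4). Exon 3 spans 95 of the 3942 bases of the principal transcript (2.41%), so a whole-gene count does not measure the deletion. Groups below are named by their labels, and every direction rests on those labels. The cardiomyocyte marker Myh6 was abundant in all libraries, at a mean of 138013 normalized counts in knockout and 175000 in control, and fell in the knockout (adjusted p = 0.0377, edgeR).

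In striated muscle, tropomyosin lies along the actin filament and covers the sites to which myosin binds. Troponin C binds calcium, troponin I holds the filament in the off state, and troponin T ties both to tropomyosin, so that calcium moves tropomyosin aside and permits contraction. Adult heart muscle uses Tnnc1, Tnni3, Tnnt2 and mainly Tpm1, whereas Tnni1 and Tnnt1 are the forms of slow skeletal muscle and Tnni1 is also the form of the embryonic heart. Tpm3 and Tpm4 also encode tropomyosins of the cytoskeleton outside the sarcomere, and one gene can yield several proteins by alternative splicing, which a count per gene does not separate.

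Several of these genes stand close together in the genome (GENCODE M21, build GRCm38, also called mm10). Tnni1 (chromosome 1, 135779434 to 135810989) and Tnnt2 (chromosome 1, 135836354 to 135852260) lie on the plus strand 25.4 kb apart. Tnnt1 (chromosome 7, 4504570 to 4516382) and Tnni3 (chromosome 7, 4518305 to 4524229) lie on the minus strand 1.92 kb apart. Tnnc1 is on chromosome 14 (31208312 to 31211729, plus strand), wholly inside the span of Nisch on the opposite strand. Tpm1 is on chromosome 9 (67022590 to 67049406, minus), Tpm2 on chromosome 4 (43514711 to 43523765, minus), Tpm3 on chromosome 3 (90072649 to 90100902, plus) and Tpm4 on chromosome 8 (72134975 to 72153142, plus).

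The sequence before the transcription start was read from RefSeq promoters (GRCm38.p6), which were found for all 9 genes, in the window of 250 bases before each start. Shown first are the windows of Tnnc1 and Tnnt2, abundant cardiac genes that were higher in the knockout, and of Tnni1, the member with the largest log2 fold change. Capitals mark the T-box letters AGGTGT (or their reverse complement ACACCT) and the M-CAT letters CATTCC (or GGAATG), searched on both strands. T-box letters are those bound by Tbx5 and its relatives, and M-CAT letters are those bound by TEAD factors, known from muscle gene promoters.
Tnnc1 (chr14:31208062-31208311, plus): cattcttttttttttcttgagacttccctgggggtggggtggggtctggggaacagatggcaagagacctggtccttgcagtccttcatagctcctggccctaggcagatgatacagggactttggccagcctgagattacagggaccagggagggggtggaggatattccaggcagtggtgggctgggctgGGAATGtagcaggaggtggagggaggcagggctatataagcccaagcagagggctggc
Tnnt2 (chr1:135836084-135836333, plus): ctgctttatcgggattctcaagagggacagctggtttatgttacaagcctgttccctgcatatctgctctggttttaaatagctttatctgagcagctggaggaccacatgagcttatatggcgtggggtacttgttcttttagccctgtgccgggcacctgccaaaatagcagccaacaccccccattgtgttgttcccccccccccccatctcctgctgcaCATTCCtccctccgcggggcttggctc
Tnni1 (chr1:135799171-135799420, plus): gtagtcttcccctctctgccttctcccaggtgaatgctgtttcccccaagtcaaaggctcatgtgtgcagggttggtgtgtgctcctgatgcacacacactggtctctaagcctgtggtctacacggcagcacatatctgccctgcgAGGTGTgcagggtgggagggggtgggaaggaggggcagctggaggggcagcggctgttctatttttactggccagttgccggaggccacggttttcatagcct

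The 9 genes had 12 such windows, since some have more than 1 start. The M-CAT letters stood in 3 of the 12, those of Tnnc1 (58 bases before the start), Tnnt2 (27 bases before its first start) and Tpm1 (56 bases), and in 12.6% of all 32851 promoter windows. The T-box letters stood in 4 of the 12, both overlapping windows of Tnni1 (103 bases before its first start) and those of Tnni3 (201 bases) and Tnnt1 (157 bases), and in 11.8% of all windows. Of the Tpm1 window 193 bases, the match among them, lie in GENCODE exons, as do 84 bases of the Tnni3 window, 29 of the Tnnt1 window and 19 of the Tnni1 window shown. For Tpm1, Tnni3 and Tnnt1 the 30 bases around the match are shown.
Tpm1 (chr9:67049252-67049281, minus): tggctgtcctaaGGAATGcggtcgcccccc
Tnni3 (chr7:4522712-4522741, minus): agtgagggacctAGGTGTgaggacagaagg
Tnnt1 (chr7:4516115-4516144, minus): gaagccgatgacAGGTGTtggacccccaaa
E-box letters (CANNTG, a palindrome) stood in 11 of the 12 windows and in 66.2% of all windows, and overlapped the T-box match of Tnnt1. No member window held a MEF2 or a CArG sequence, which 2.92% and 1.47% of all windows did. These matches describe letters only and do not show that a factor binds there.

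Of the 9 genes, 6 rose in the knockout libraries: Tnnc1, Tnni1, Tnnt2, Tpm1, Tpm3 and Tpm4. None fell by the same test, and Tnni3, Tpm2 and Tnnt1 did not pass (edgeR quasi-likelihood test, Benjamini-Hochberg adjusted p under 0.05 over 13191 genes). Over all tested genes 20.8% rose and 21.8% fell, 42.6% in all. The 2 genes with lower means, Tnni3 and Tpm2, had an unadjusted p under 0.05, and 1 member, Tnni3, fell with DESeq2 and with limma-voom. The median log2 fold change (knockout over control) of the 9 genes was 0.65, beside -0.00092 over all tested genes. With a log2 fold change above 1 also required, 2 members rose, Tnni1 and Tpm4, where 11.6% of all genes passed in either direction. Both counts of risen members hold Tnni1, which met the filter on low counts only through the knockout libraries, where it was high. With at least 50 counts required in at least 4 libraries, Tnni1 was not tested and 5 of 8 members rose. With scaling to library size alone the median of all genes moved to 0.14 and the split of all genes to 3942 higher and 2020 lower, against 2741 higher and 2881 lower with the scaling used here, and 6 members still rose. For 4 members all knockout libraries were above all controls, which held for 16.3% of all tested genes, and for no member was every knockout library below (15.0% of all). Levels are the deposited normalized counts, and a log2 fold change is given with its standard error (SE).

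**Figure D1:**
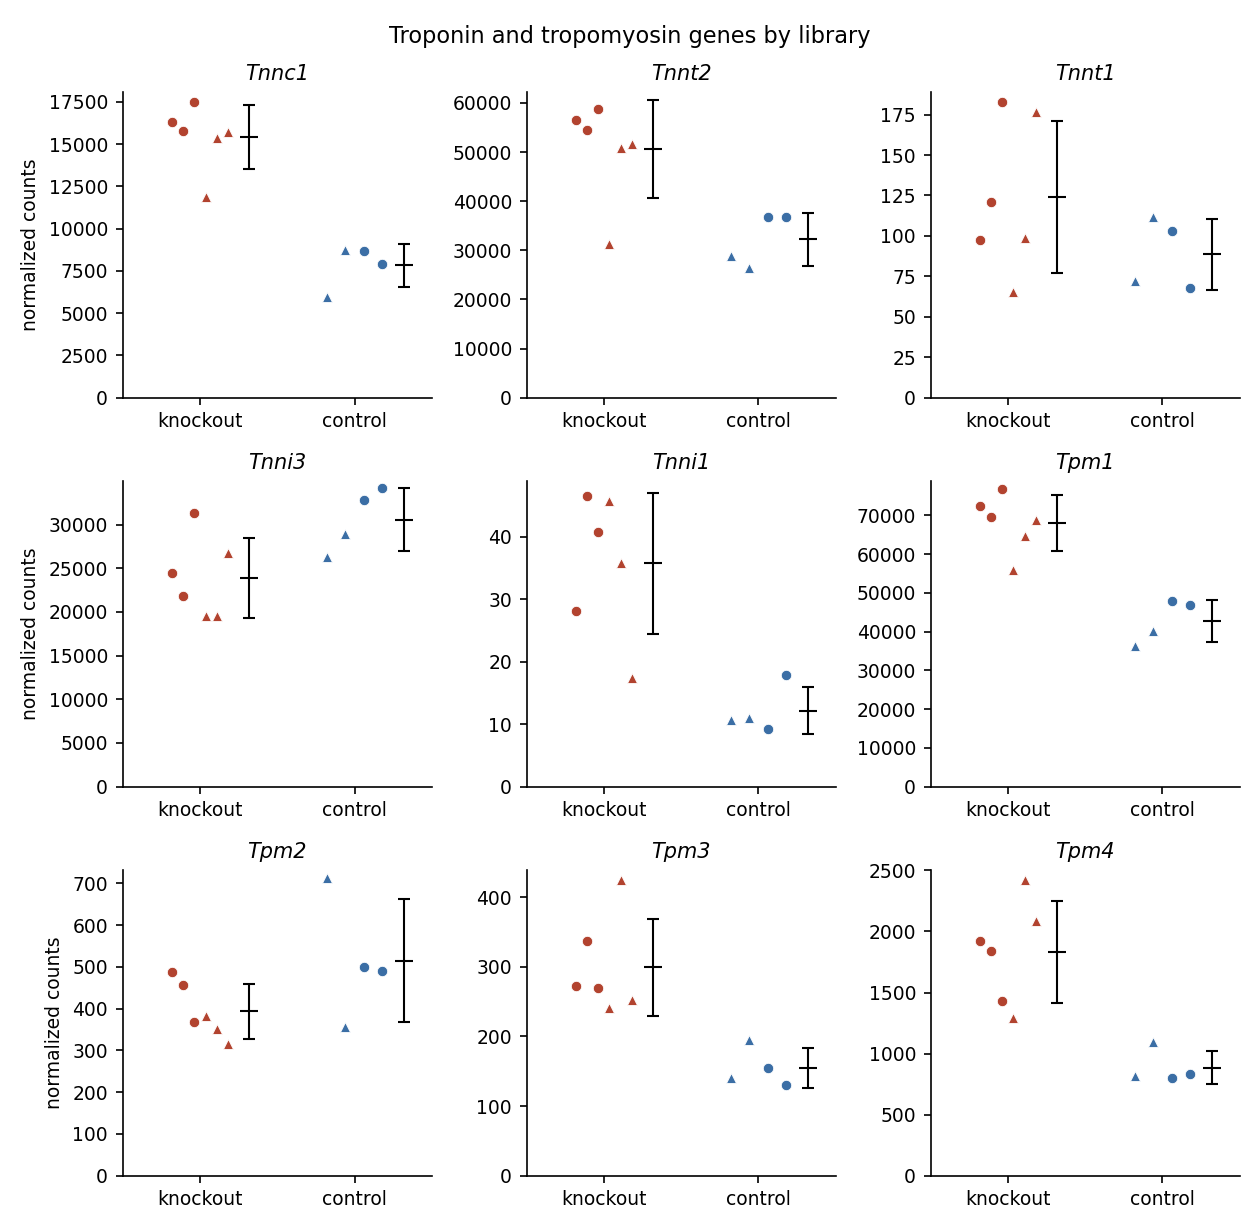
Normalized counts of each gene in 6 knockout and 4 control libraries (circles female, triangles male; the bar is the mean ± SD). The groups do not overlap for Tnnc1, Tpm1, Tpm3 and Tpm4, and knockout M1 lies apart from the other knockout libraries for Tnnt2.

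Tnnc1, the calcium-binding subunit, rose with no overlap between groups. Its level was 16286, 15748, 17498, 11859, 15332 and 15727 normalized counts in knockout F1, F2, F3, M1, M2 and M3, against 5951, 8710, 8680 and 7932 in control M1, M2, F1 and F2. The lowest knockout library, M1, still lay above the highest control. This was a log2 fold change of 0.96 ± 0.14, or 1.94-fold (adjusted p = 0.000108, edgeR). Whether reads were counted by strand is not given in the sources used here, so reads of Nisch, which overlaps Tnnc1 on the other strand, could not be told apart. Nisch itself was counted at 1382 ± 247 normalized counts in knockout and 1145 ± 103 in control libraries (SD, n = 6 and n = 4), far below Tnnc1, with an adjusted p of 0.12 (edgeR).

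Tnni3, the cardiac inhibitory subunit, was the one abundant member whose mean was lower in the knockout. It stood at 24474, 21853, 31301, 19517, 19586 and 26758 normalized counts in knockout F1, F2, F3, M1, M2 and M3, against 26264, 28916, 32796 and 34238 in control M1, M2, F1 and F2. The groups overlapped, with 4 of 6 knockout libraries below the lowest control. The log2 fold change of -0.38 ± 0.15 did not pass (adjusted p = 0.0546, edgeR). Dnaaf3 overlaps the 5′ part of the Tnni3 span on the same strand for 1297 bases, and how such reads were assigned is not given in the sources used here. The call lay close to the threshold: it passed with 8 of 21 alternatives, among them limma-voom (adjusted p = 0.0408), sex as a covariate (adjusted p = 0.0389) and offsets for transcript length and GC content (log2 fold change -0.57, adjusted p = 0.00525). The same 8 include the fits without knockout F3 (adjusted p = 0.0149) and without knockout M3 (adjusted p = 0.0458).

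Tnni1, the slow skeletal and embryonic troponin I, had the largest log2 fold change of the 9 genes and the lowest level. Its normalized counts were 28.1, 46.5, 40.8, 45.6, 35.7 and 17.5 in knockout F1, F2, F3, M1, M2 and M3, against 10.6, 11.01, 9.25 and 17.8 in control M1, M2, F1 and F2. Knockout M3 lay just below control F2, and the other 5 knockout libraries lay above every control. It rose 2.86-fold, a log2 fold change of 1.52 ± 0.30 (adjusted p = 0.00112, edgeR). The gene was counted at 16 to 50 reads in knockout libraries and 8 to 17 reads in control libraries, so its counting error is large. The filter on low counts was met in all 6 knockout libraries but in 3 of 4 controls, so Tnni1 would not have been tested without the group where it was high.

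Tnni1 stayed a trace form of troponin I in both groups. Per kilobase of exon it supplied 0.0896% ± 0.0367 of troponin I reads in knockout libraries (SD, n = 6) and 0.0227% ± 0.00558 in control libraries (SD, n = 4), with Tnni3 supplying the rest. The highest share in any library was 0.134%, in knockout M1. Per kilobase of coding sequence the shares were 0.242% in knockout and 0.0615% in control, so the choice of length changed the share but not its order.

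Tnnt2, the cardiac troponin T that anchors the complex, rose in all knockout libraries but one. It had 56540, 54553, 58742, 31250, 50772 and 51687 normalized counts in knockout F1, F2, F3, M1, M2 and M3, against 28864, 26315, 36870 and 36792 in control M1, M2, F1 and F2. Knockout M1 fell within the control range and the other 5 lay well above it. The difference was 0.63 ± 0.17 on the log2 scale (adjusted p = 0.0101, edgeR), and without knockout M1 it was 0.75 ± 0.13 (adjusted p = 0.000425).

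Tnnt1, the slow skeletal troponin T, did not pass. It stood at 97.8, 121, 183, 65.3, 99.0 and 177 normalized counts in knockout F1, F2, F3, M1, M2 and M3, against 72.1, 112, 103 and 68.0 in control M1, M2, F1 and F2. Knockout F3 and M3 were the high libraries and knockout M1 was the lowest of all 10. The log2 fold change was 0.45 ± 0.26 (adjusted p = 0.191, edgeR), an approximate 95% interval of 0.952-fold to 1.96-fold. Without knockout M1 it passed, at 0.59 ± 0.22 (adjusted p = 0.0437, edgeR), the one library whose omission led to a call. Per kilobase of exon, Tnnt1 supplied 0.844% ± 0.236 of troponin T reads in knockout and 0.990% ± 0.349 in control libraries, ranges that overlapped.

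Tpm1, the main tropomyosin of heart muscle, rose with no overlap between groups. Its level was 72380, 69619, 76853, 55997, 64646 and 68868 normalized counts in knockout F1, F2, F3, M1, M2 and M3, against 36414, 40153, 47846 and 46828 in control M1, M2, F1 and F2. It rose 1.56-fold, a log2 fold change of 0.65 ± 0.13 (adjusted p = 0.00115, edgeR). Tpm1 supplied 91.2% ± 1.63 of tropomyosin reads per kilobase of exon in knockout libraries and 91.5% ± 1.57 in controls, so its share differed by less than the spread.

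Tpm2, the beta tropomyosin of skeletal and smooth muscle and of the embryonic heart, had a lower mean in the knockout but did not pass. It stood at 488, 456, 368, 382, 351 and 314 normalized counts in knockout F1, F2, F3, M1, M2 and M3, against 712, 356, 500 and 491 in control M1, M2, F1 and F2. Control M1 was the highest library and control M2 lay among the knockout values. The log2 fold change was -0.41 ± 0.17 (adjusted p = 0.0644, edgeR), and -0.19 ± 0.15 without control M1 (adjusted p = 0.363) and -0.53 ± 0.16 without control M2 (adjusted p = 0.0163). It also passed without knockout F1, at -0.48 ± 0.17 (adjusted p = 0.0368), and with offsets for length and GC content, at -0.56 ± 0.17 (adjusted p = 0.0161). As a share of tropomyosin reads per kilobase of exon, Tpm2 was at 0.922% to 1.40% in knockout libraries and 1.79% to 3.91% in control libraries, with no overlap. That total is mainly Tpm1, which rose 1.56-fold, so the share would be lower even with Tpm2 unchanged. The normalized counts of Tpm2 itself overlapped between groups.

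Tpm3, which encodes slow muscle and cytoskeletal tropomyosins, rose in every knockout library. It had 272, 338, 269, 241, 424 and 253 normalized counts in knockout F1, F2, F3, M1, M2 and M3, against 141, 195, 155 and 130 in control M1, M2, F1 and F2. Its log2 fold change was 0.92 ± 0.17 (adjusted p = 0.000615, edgeR). Copies of Tpm3 elsewhere in the genome are annotated, so its reads may be shared with them and its value is uncertain to that extent.

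Tpm4, a tropomyosin of the cytoskeleton, rose 2.03-fold with no overlap between groups. It had 1920, 1840, 1428, 1288, 2420 and 2084 normalized counts in knockout F1, F2, F3, M1, M2 and M3, against 815, 1091, 799 and 837 in control M1, M2, F1 and F2. The log2 fold change was 1.02 ± 0.17 (adjusted p = 0.000259, edgeR). Per kilobase of exon Tpm4 supplied 7.23% ± 1.59 of tropomyosin reads in knockout and 5.65% ± 1.21 in control libraries, ranges that overlapped. Antisense transcripts overlap part of Tpm4, and without strand their reads could not be told apart.

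**Figure D2:**
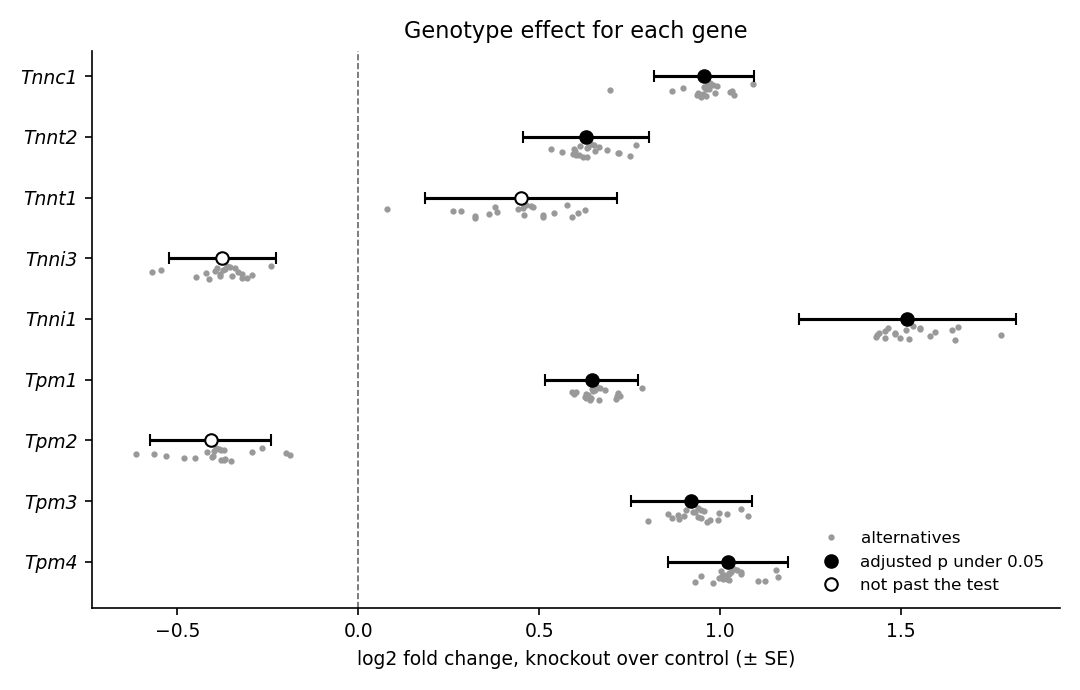
Log2 fold change (knockout over control) of each gene with its SE (horizontal axis), filled where the adjusted p was under 0.05; small grey points are the values under other settings and with single libraries left out. No gene changed sign under any of them, and the values of Tnnt1 ran down to 0.08.

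The ratio between members within a library does not depend on how libraries are scaled. There were 0.654 ± 0.0857 Tnnc1 reads per Tnni3 read in knockout libraries (SD, n = 6) and 0.256 ± 0.0345 in controls (SD, n = 4). For Tnnt2 the ratio was 2.13 ± 0.391 in knockout and 1.05 ± 0.0968 in control libraries, and for Tpm1 it was 2.89 ± 0.332 in knockout and 1.40 ± 0.0401 in control libraries. For all 3 the groups did not overlap, including Tnnt2, whose lowest knockout ratio of 1.60 in M1 exceeded the highest control ratio of 1.12. By contrast, Tpm1 reads per Tnnt2 read were 1.38 ± 0.205 in knockout and 1.34 ± 0.125 in control libraries, which overlapped. Cardiac troponin C, troponin T and tropomyosin were thus higher relative to cardiac troponin I in every knockout library. These ratios describe reads, not protein, and have no test because the genes were chosen with results of these data known.

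**Figure D3:**
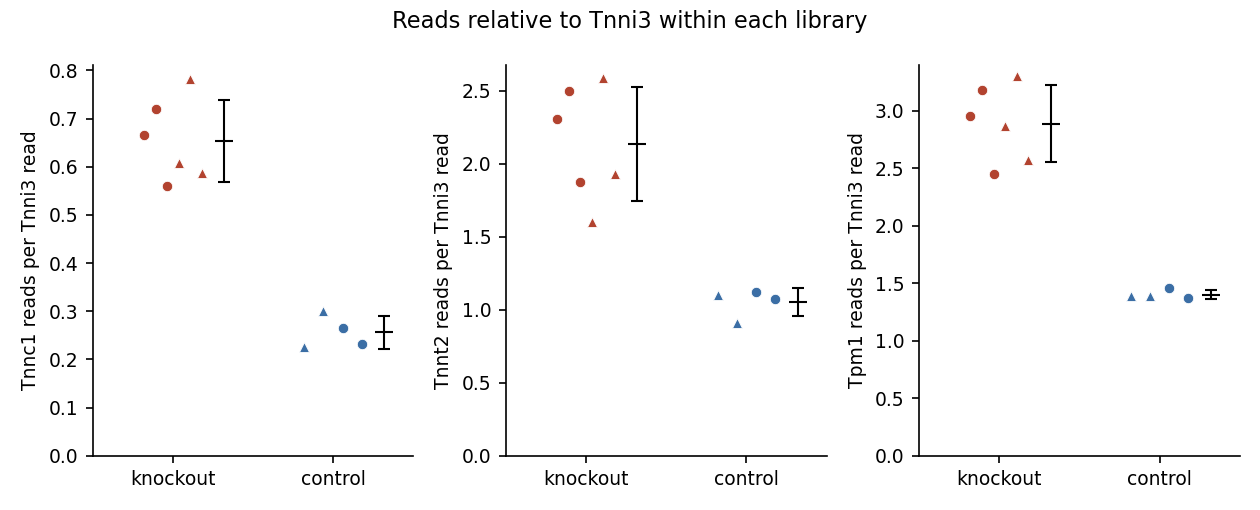
Reads of Tnnc1, Tnnt2 and Tpm1 per read of Tnni3 in each library (circles female, triangles male; the bar is the mean ± SD). The knockout libraries lie above all control libraries in each panel.

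Levels of different genes were ordered per kilobase of exon. In knockout libraries the order was Tnnc1 (14801 ± 1821 normalized counts per kilobase), Tnni3 (11592 ± 2224), Tpm1 (10495 ± 1104), Tnnt2 (6526 ± 1281) and Tpm4 (831 ± 190). Tnnc1, Tnni3 and Tpm1 all overlapped with each other in range. In control libraries Tnni3 came first (14810 ± 1763), then Tnnc1 (7510 ± 1245), Tpm1 (6601 ± 842), Tnnt2 (4155 ± 701) and Tpm4 (402 ± 62.7), with overlap between Tnnc1 and Tpm1. Tpm2, Tnnt1, Tpm3 and Tnni1 followed in that order in both groups, with Tnni1 at 9.92 ± 3.13 in knockout and 3.38 ± 1.06 in control libraries. Tnnt1 and Tpm3 overlapped in both groups. The length changes this order: per kilobase of coding sequence Tnnt2 came first in knockout libraries (52644 ± 10331), followed by Tpm1, Tnnc1 and then Tnni3 (27488 ± 5274). By this length Tnnt2 overlapped with Tpm1, Tnnc1 and Tnni3 in knockout libraries, and Tnnc1 overlapped with Tnni3. In controls Tnni3 had the highest mean by both lengths, but per kilobase of coding sequence it overlapped with Tnnt2 (35119 ± 4181 for Tnni3 and 33518 ± 5657 for Tnnt2). By that length Tpm1 overlapped with both of them in controls.

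Together the 9 genes took 2.57% ± 0.321 of all reads in knockout libraries (range 2.01% to 2.96%) and 1.70% ± 0.189 in control libraries (1.47% to 1.86%), with no overlap. This share rests on library size alone. As summed normalized counts the groups overlapped. Knockout M1, at 120644, lay below control F1 (127758) and F2 (127332), and every other knockout library lay above all controls. Among knockout libraries M1 was the lowest for 7 of the 9 genes and F3 the highest for 5. Over the 10 libraries, the centred log2 profiles of Tnnt2 and Tpm1 were the closest pair among the members, with a root mean square difference of 0.15. Tnnc1 and Tpm1 followed at 0.19 and Tpm3 and Tpm4 at 0.20. These differences hold the genotype effect of each gene as well as its spread between animals.

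Outside the family, the gene closest to Tpm1 was Dnpep, an aspartyl aminopeptidase gene (root mean square difference 0.08, where the median over 9988 genes was 0.42). Closest to Tnni3 was Fkbp4, a co-chaperone gene (0.08, median 0.37). The gene closest to Tpm3 was Ctsz, which encodes the lysosomal protease cathepsin Z (0.09), followed by Arpc1b, a subunit gene of the actin-nucleating Arp2/3 complex (0.10, both with a median of 0.56). Closest to Tpm4 was Anxa1, the annexin A1 gene (0.13, median 0.60). For Tnnc1 it was Vamp8 (0.11, median 0.56). Casq2, the cardiac calsequestrin of the calcium store, was the second closest to Tnnt2 (0.15, median 0.47) after Nsfl1c (0.14). Closest to Tnni1, Tnnt1 and Tpm2 were Spry1 (0.26), Rsad2 (0.24) and Nek4 (0.15).

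The effect was also estimated within each labelled sex, in a model with a term for the difference. In males 6 of 9 members rose and in females 5 of 9, where 12.8% of all tested genes rose in males and 13.5% in females. None fell in either sex, where 13.2% of all genes fell in males and 14.7% in females. With each sex fitted alone, on 3 knockout and 2 control libraries, 2 members rose in males (Tnnc1 and Tpm4) and 6 in females, so the order of these counts turned with the fit. Tnnc1 changed by 0.94 ± 0.19 on the log2 scale in males and 0.97 ± 0.19 in females, and Tpm4 by 0.99 ± 0.24 in males and 1.05 ± 0.24 in females. Tnnt2 had 0.67 ± 0.21 in males (adjusted p = 0.0347) and 0.59 ± 0.21 in females (adjusted p = 0.0525, edgeR). Tpm2 had the largest gap, -0.63 ± 0.23 in males and -0.20 ± 0.23 in females, a difference of -0.42 ± 0.32. The difference between sexes passed for 0 of the 9 genes with edgeR (lowest adjusted p = 0.882, 0 with an unadjusted p under 0.05), and for 0 with DESeq2 and 0 with limma-voom, where 0.205% of all genes passed with edgeR. A p that misses the threshold does not show that the sexes respond alike, and in simulated data for this term 14.5% of 2-fold differences were found.

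**Figure D4:**
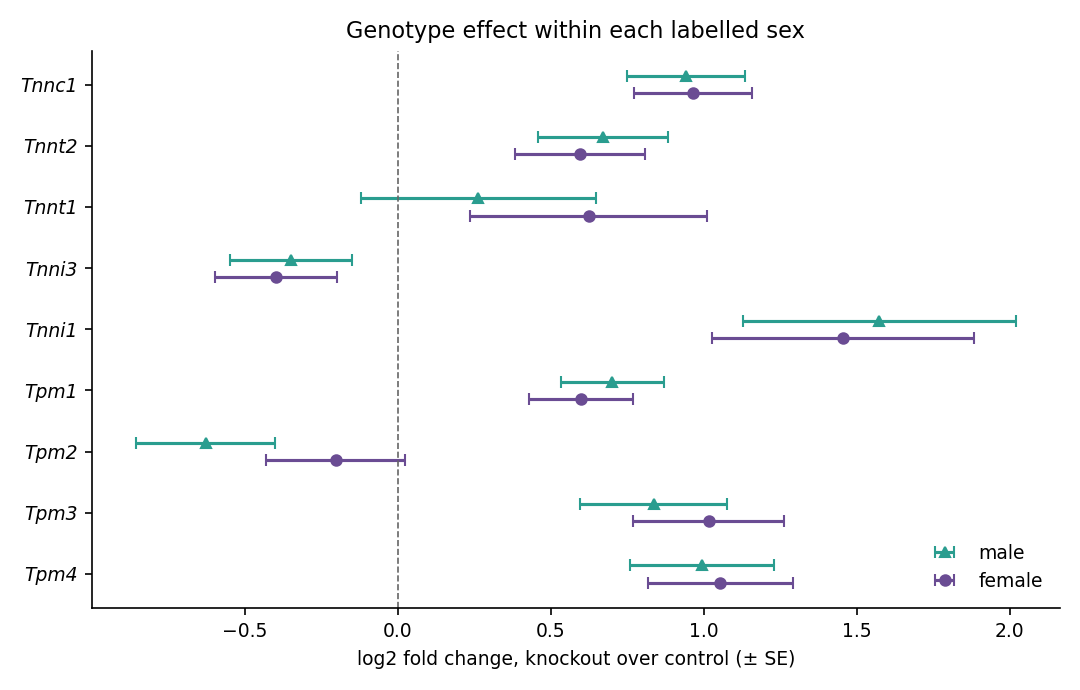
Log2 fold change (knockout over control) of each gene in libraries labelled male (triangles) and female (circles), with SE. Both estimates have the same sign for all 9 genes, and the widest gap is that of Tpm2.

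Of the fast skeletal troponins, which are not heart forms, Tnnt3 and Tnnc2 had too few reads to test. Tnnt3 was counted at no more than 11 reads in any knockout library and 9 in any control library, and Tnnc2 had 7 reads in all knockout libraries together and 0 in all controls. Tnni2, the fast troponin I, was the one tested and fell to 23.5 ± 6.30 normalized counts in knockout (SD, n = 6), against 90.5 ± 61.2 in control libraries (SD, n = 4), a log2 fold change of -1.96 ± 0.40 (adjusted p = 0.00149, edgeR). Its control values were 22.5 and 55.0 in the males M1 and M2 and 142 in both females, so the groups overlapped. Markers of fast skeletal muscle had a summed level of 37.4 to 192 normalized counts in knockout and 66.9 to 288 in control libraries, highest in the same control females F1 and F2, at 288 and 206. None of the 3 tested passed over all libraries with edgeR, and Myod1 was at 0 reads in all libraries. Among them Atp2a1, the calcium pump of fast muscle, named after its values were seen, had 9.82 to 148 normalized counts in knockout libraries, against 30.7 and 25.4 in control M1 and M2 and 241 and 166 in control F1 and F2. In females it fell by 3.88 on the log2 scale (adjusted p = 0.00167, edgeR). The part of skeletal muscle RNA in the fall of Tnni2 was not tested.

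Other genes of the thin filament divided. Of 16 tested, 4 rose, 6 fell and 6 did not pass, with a median log2 fold change of 0.02, where 20.8% of all tested genes rose and 21.8% fell. Nebulin (Neb), a giant filament protein, fell to 77.7 ± 18.4 normalized counts in knockout, against 588 ± 118 in control libraries (log2 fold change -2.95 ± 0.17). Its cardiac relative nebulette (Nebl) fell to 475 ± 112, against 1690 ± 353, and Cap2, an actin-regulating protein, to 1331 ± 119, against 2099 ± 90.2. Skeletal alpha-actin (Acta1) rose to 347 ± 174 in knockout, against 11.2 ± 5.15 in control libraries. For these 4 the adjusted p was at most 4.57e-05 (edgeR). Cardiac actin (Actc1), named after its values were seen, rose by 0.56 ± 0.12 on the log2 scale (adjusted p = 0.00236, edgeR), close in size to those of Tnnt2 and Tpm1.

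Among 15 kinases and phosphatases that act on thin filament proteins or their neighbours, 3 rose, 4 fell and 8 did not pass (median log2 fold change -0.01). These counts lie near the shares of all tested genes, of which 20.8% rose and 21.8% fell. The cyclic GMP-dependent kinase Prkg1 fell 1.51-fold, and the protein kinase C gene Prkcd rose 1.77-fold (adjusted p at most 0.00159, edgeR). Tnni3k, a cardiac kinase that binds troponin I and was named after its values were seen, had 746 normalized counts in knockout and 994 in control libraries on average (adjusted p = 0.00651, edgeR).

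Markers of cell types were read beside the members, where 20.8% of all tested genes rose and 21.8% fell. Of 10 cardiomyocyte markers outside the family 3 rose, 3 fell and 4 did not pass (median log2 fold change -0.16). Their summed level was 218457 to 290991 normalized counts in knockout and 289793 to 329324 in control libraries. Myh6 made up most of it, at a mean of 138013 in knockout and 175000 in control libraries, so the sum does not describe the whole list. Ryr2 fell to 7639 ± 1694, against 34855 ± 3468 in control libraries, and so also lowered the sum. Actn2 rose to 12067 ± 1300, against 8815 ± 1016 (adjusted p at most 0.00665 for both, edgeR). Genes listed as markers of the ventricle and slow muscle had a summed level of 6275 to 12391 in knockout and 1983 to 2571 in control libraries. Of 5 tested, 3 were higher, among them Myl3 and Casq1, and Myh7 and Hey2 did not pass. Casq1 is mainly a fast skeletal muscle gene, although it was not in the fast muscle list. Its mean was 231 in knockout and 32.5 in control libraries. Irx4 was at 0 reads in all libraries. In bulk tissue, fewer cells of a type and less RNA per cell cannot be told apart.

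Tpm3 and Tpm4 are also made by cells other than cardiomyocytes, and most tested markers of those cells rose. Over all tested genes 20.8% rose and 21.8% fell. All 7 tested macrophage markers rose, with a summed level of 6827 to 10443 normalized counts in knockout and 2881 to 4070 in control libraries. Of 10 fibroblast markers 7 rose and 2 fell (88104 to 119133 in knockout and 56703 to 62634 in control). Of 9 tested smooth muscle and pericyte markers 5 rose and none fell (14271 to 17862 in knockout and 8816 to 10000 in control). Most of that last sum was Des, which cardiomyocytes also make, at a mean of 12293 in knockout and 6411 in control libraries. Of the 4 that did not pass, Myh11, Rgs5 and Smtn had lower means in the knockout and Lmod1 a higher one. Of 6 endothelial markers 4 rose and 1 fell, and all 6 markers of dividing cells rose. Knockout M2 had the highest level of Tpm3, of Tpm4 and of the summed macrophage markers, and the highest sum of dividing cell markers, 2313. The summed fibroblast markers and the summed smooth muscle and pericyte markers were highest in knockout F2 (119133 and 17862), and the endothelial markers in knockout M1 (17501). The part of these cells in the rise of Tpm3 and Tpm4 was not tested.

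In the authors' deposited table the members had the same directions. The authors' log2 fold changes there were 0.96 for Tnnc1, 1.37 for Tnni1, -0.35 for Tnni3, 0.63 for Tnnt2, 0.44 for Tnnt1, 0.66 for Tpm1, -0.37 for Tpm2, 0.91 for Tpm3 and 1.01 for Tpm4. By the adjusted p in the authors' deposited table (DESeq2), Tnni3 passed 0.05 at 0.0398, whereas Tpm2 at 0.0825 and Tnnt1 at 0.162 did not.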

How the data were processed

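The submitters' processing notes name TopHat2 2.0.11, FastQC, DESeq2, featureCounts and the mm10 build. Strand setting and annotation: not given in the sources used here. The authors deposited raw counts per gene and library and a normalized signal, in which each library's counts are divided by its size factor. The deposited table also holds the authors' log2 fold change with its standard error, its linear fold, a test score (not used), a p-value and an adjusted p-value. Columns were matched to libraries by label.

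Raw counts were tested with edgeR 4.0.16 in R 4.3.3 (filterByExpr, TMM, quasi-likelihood F-test, Benjamini-Hochberg at 0.05 over 13191 genes). The SE is the absolute log2 fold change divided by the square root of F. Sex effects came from a model with sex, group and their interaction. In simulated counts 34.4% of 1.5-fold, 76.8% of 2-fold and 97.0% of 4-fold genotype changes were found. The simulation changed only 64, 69 and 67 genes at these folds, whereas 5622 genes were called in the data. The adjusted threshold was therefore stricter there, and these shares do not give the power of the real test. Positions and lengths came from GENCODE M21. Likeness used log2 CPM with a prior count of 2, for genes averaging at least 50 normalized counts in a group.

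All members were named. Of each other list up to 4 called genes with the smallest adjusted p were named, or 2 for markers, and for likeness the nearest genes. Some kinases that this rule names are not reported here. The members and lists were chosen with earlier results of these data known. Lowest chi-square per degree of freedom between replicates was 4.11, so none agreed within sampling noise. P-values set the difference between groups against the spread between libraries, and no batch is labelled. Alternatives were RLE or library-size scaling, DESeq2 1.42.0, limma-voom 3.58.1, other filters and thresholds, sex or a replicate block as covariates, 1 sex alone, length and GC offsets (90.6% of tested genes), and leaving out each library. Protein sequences were not used here. Coding length and the M-CAT letters were added after the data were seen.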

Additional observations from a re-analysis of the deposited data

Results flagged for a closer look

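Tnnt2 in knockout M1 stood far below the other 5 knockout libraries, at 31250 normalized counts, where the next lowest had 50772. The gap was 0.71 of the range of the group. Without that library the log2 fold change of Tnnt2 was 0.75, against 0.63 with it. Tpm4 in control M2 stood above the other controls, at 1091 normalized counts, where the next highest had 837, and the gap was 0.871 of the range. Without that library the log2 fold change of Tpm4 was 1.16, against 1.02 with it. In all, 18 groups of values were looked at, and chance alone flags about 1 in 20 such groups. Why these libraries lay apart was not tested.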

How the results depend on the processing

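No member changed sign under any of the alternatives run, and Tnnc1 and Tpm4 passed at an adjusted p under 0.05 in all 21 refits, which leave out the changed thresholds. The count of 6 members higher ran from 6 to 7 with single libraries left out. It was 5 of 8 tested with the stricter filter, and 2 with male libraries only or with a log2 fold change above 1 required. The count of 0 members lower ran from 0 to 1 with single libraries left out. This count was 1 with DESeq2, limma-voom, the stricter filter (8 members tested) or sex as a covariate, and 2 with length and GC offsets or an adjusted p under 0.1. With the replicate number as a block it was 1, Tnni3 (log2 fold change -0.54, adjusted p = 0.00179), and the log2 fold change of Tnnt1 was 0.08. Libraries sharing a number deviated from their group means with correlations of -0.126 to 0.172, and 1 of 4 knockout libraries matched its own number best. The labels name no pairing, and so few libraries cannot settle whether the numbers pair animals. Over all genes the count of 5622 was 4709 to 6085 with single libraries left out, 2061 in males only, 4957 in females only and 1533 with a log2 fold change above 1. The sex difference passed for 27 genes, 16 with limma-voom, 78 with DESeq2, 101 with the replicate block, and 7 to 77 with single libraries left out (77 without knockout M3). In none of these did a member pass. In males alone Tnnt2 (log2 fold change 0.69), Tnni1 (1.59), Tpm1 (0.72) and Tpm3 (0.86) lost their call with values close to those over all libraries, whereas females alone kept 6 members higher. Tnni1, with 8 to 50 reads per library, is limited by depth and dropped out under the stricter filter. Coding length from proteins was not run. Other causes were not tested.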
